A study of Homo sapiens with 2 samples.

Results

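The ubiquitin-conjugating enzymes, or E2 enzymes, were examined in the established melanoma cell line A375 (human), with and without silencing of BMI1. Members were the array rows whose gene symbol in the platform annotation begins with UBE2 and a further letter, with 1 gene left out in advance. They came to 28 rows of 45033, or 26 genes of 16583 named ones. One array held RNA of A375 cells that carried an empty lentivirus, and 1 array held RNA of A375 cells given a lentiviral hairpin against BMI-1 (shBMI-1). Both cultures thus carried a lentivirus, and both were grown in medium with 10% serum. The labels do not say whether the cells were single clones or a pool. With 1 array per group there was no spread between samples, so the number of arrays limits the precision, no test was made, and the text gives both values and their log2 ratio, shBMI-1 over empty vector.

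Ubiquitin is passed along a relay of enzymes. An E1 enzyme activates it, an E2 enzyme carries it on a cysteine, and an E3 ligase brings the loaded E2 to the substrate. The E2 often decides which kind of chain is built, and with it whether the substrate is degraded or used in signalling. A few E2 enzymes carry relatives of ubiquitin, namely NEDD8, SUMO and ISG15. BMI1 itself is part of a ubiquitin ligase: in Polycomb repressive complex 1 it pairs with RING1 or RNF2, which use E2 enzymes of the UBE2D group to mark histone H2A.

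Values are linear array intensities in arbitrary units. A gene was taken as bright enough to describe if it reached the median of all rows, 131.2 on the empty vector array or 129.8 on the shBMI-1 array, on at least 1 of them. The disagreement of ratios between rows that report the same gene was pooled in bands of intensity and is called the row SD. It was 0.80 on the log2 scale at a mean intensity of 32 to 64, 0.42 at 256 to 512 and 0.20 above 4096. These rows lie on the same arrays, so the row SD holds no variation between cultures or arrays and cannot stand for replicate error. Whether rows of one gene share probe sequence was not checked. A distance in row SDs thus places a ratio beside the scatter between rows only. The targeted gene, BMI1, read 68.6 and 25.8 (log2 ratio -1.41, row SD 0.80) on the empty vector and shBMI-1 arrays. It had 1 row and was itself under the brightness limit. Of the genes under the limit at its level, 10.4% were past 2-fold lower, so this row does not settle the degree of silencing. Of 10 melanocyte lineage markers 4 were above the limit, among them SOX10 (7608 and 6889) and S100B (1123 and 1452), whereas MITF, TYR, MLANA, PMEL, DCT and TYRP1 were under it on both arrays. Of 6 fibroblast markers 0 were above the limit, of 5 leukocyte markers 1 (LAPTM5, on the empty vector array alone), and of 6 keratinocyte and epithelial markers 4. PTPRC, which defines leukocytes, read 12.9 and 12.4. The part of such markers in the results below was not tested. In a culture, fewer cells of a type and less RNA per cell cannot be told apart.

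The E2 genes differed little between the arrays. Of the 26 genes, 21 were above the brightness limit, and 0 of these 21 were past 2-fold in either direction, beside 6.78% of all 8921 genes above the limit. The share over all genes depends on brightness. With the limit on both arrays it was 2.24%, beside 0 of 19 E2 genes. At the 75th percentile it was 2.16%, beside 0 of 12. Their log2 ratios ran from -0.95 to 0.50 with a median of 0.09, the same to this precision as the median of 0.09 over all genes. The count above 0 was 11 of 21, where 60.0% of all genes above the limit were above 0. A ratio within 0.25 of 0 was found in 12 of the 21, 57.1%, beside 49.1% of all genes above the limit. At 1.5-fold, 2 of the 21 were lower (UBE2E2 and UBE2G2) and 0 higher, beside 8.45% of all genes lower and 10.1% higher. The share that was lower is thus near that of all genes, and the counts mark out no group behaviour of the family. Of the remaining 5 genes, UBE2B, UBE2G1, UBE2J1, UBE2K and UBE2U, the intensity was under the limit on both arrays, and UBE2K was the one past 2-fold. Among all 7662 genes under the limit, 15.6% were past 2-fold in either direction and 7.83% were past it in the lower direction.

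**Figure D1:**
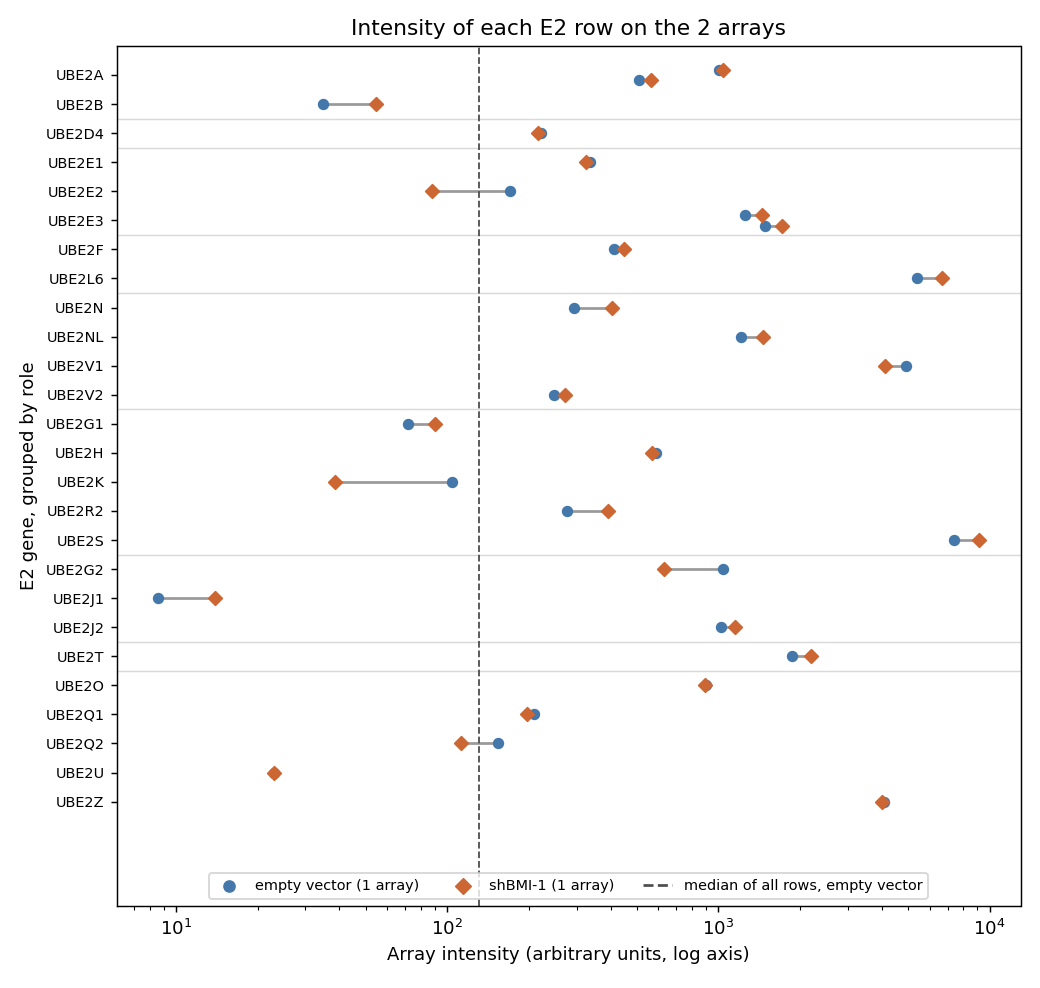
Intensity of every E2 row (log axis, arbitrary units) on the empty vector array (circles) and the shBMI-1 array (diamonds), 1 array each, with genes grouped by role and separated by grey lines; UBE2A and UBE2E3 have 2 rows each. The dashed line is the median of all rows on the empty vector array, 131.2, and the widest pairs of symbols are those of UBE2K and UBE2E2, followed by UBE2G2 (lower with shBMI-1) and by the dim UBE2J1 and UBE2B (higher).

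The 3 lowest ratios belonged to UBE2K, UBE2E2 and UBE2G2. UBE2K, which builds degradative ubiquitin chains and carries its own ubiquitin-binding domain, read 104.3 on the empty vector array and 38.5 on the shBMI-1 array, 2.71-fold lower (log2 ratio -1.44). Both of its values were dim. The row SD at its level was 0.80, its ratio stood at -1.90 row SDs from the median of all genes, and 5.01% of all 2477 named genes of the same intensity band had a ratio as low or lower. With 50 units added to every value before taking logarithms, its log2 ratio was -0.80 and no longer past 2-fold.

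UBE2E2, an E2 with an extended amino-terminal region, read 170.3 on the empty vector array and 88.2 on the other (log2 ratio -0.95). It passed the limit on the empty vector array alone, the one where it was higher. The row SD at its level was 0.76, and 10.2% of all 2336 named genes of its intensity band had a ratio as low or lower. Its paralogs differed less between the arrays. UBE2E2, UBE2E1 and UBE2E3 stood at -1.37, -0.32 and 0.47 row SDs from the median of all genes, so none was past 2 row SDs. UBE2E1 read 336.3 and 325.6 (log2 ratio -0.05). UBE2E3, whose product is imported into the nucleus when charged, had 2 rows, at 1483.6 and 1714 in one and 1257.7 and 1444.9 in the other, with log2 ratios of 0.21 and 0.20. The rows of UBE2E3 thus gave almost the same ratio.

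UBE2G2, the E2 that serves degradation of misfolded proteins at the endoplasmic reticulum, read 1035 on the empty vector array and 631.7 on the shBMI-1 array, 1.64-fold lower (log2 ratio -0.71). Both values were well above the brightness limit. It was the only one of the 21 genes more than 2 row SDs from the median of all genes, at -2.69 row SDs, where 8.93% of all genes above the limit were that far out in either direction. Of the 1552 genes in its band, 2.90% had a ratio as low or lower. UBE2G2 was measured by 1 row, so no second row bears on it. Its distance in row SDs leaves out variation between cultures, which was not measured. UBE2J2, a membrane-anchored E2 of the same degradation route, read 1025 and 1155 (log2 ratio 0.17). UBE2J1, its relative, read 8.59 and 14.0, both far under the limit. UBE2J2 lay 0.35 row SDs above the median of all genes, and UBE2J1 was too dim to place. The lower ratio of UBE2G2 was thus not seen in UBE2J2, and no direction of these genes as a set was shown.

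**Figure D2:**
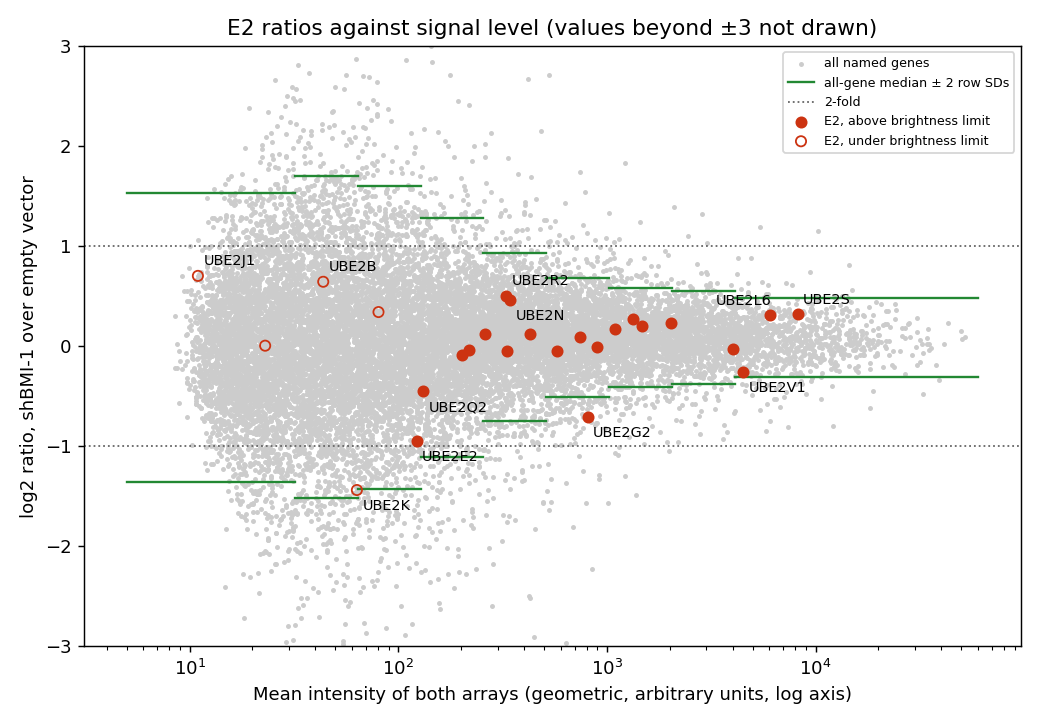
Log2 ratio of shBMI-1 over empty vector against the geometric mean intensity of both arrays (log axis, arbitrary units) for all named genes (grey) and the E2 genes (red; filled above the brightness limit, open under it). Green lines mark 2 row SDs on either side of the median of all genes in each intensity band and dotted lines mark 2-fold; UBE2G2 is the only filled point outside the green lines, and UBE2K, open, lies past 2-fold.

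At the other end, UBE2R2 and UBE2N had the highest ratios among the 21 genes. UBE2R2, a paralog of CDC34 that extends chains on substrates of cullin-RING ligases, read 275.9 on the empty vector array and 390.2 on the shBMI-1 array (log2 ratio 0.50, row SD 0.42). Of the 1826 genes in its band, 14.7% had a ratio as high or higher. CDC34, outside the UBE2 symbols, read 1006 and 1375 (0.45, row SD 0.25). Both genes of this pair were higher with shBMI-1, by 0.98 and 1.47 row SDs above the median of all genes. UBE2G1, another E2 of cullin-RING ligases, read 71.5 and 90.5, under the limit. UBE2H, the partner of the CTLH ligase, read 587.4 and 569.5 (-0.04).

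UBE2N builds chains that signal rather than degrade, and does so only together with an inactive E2-like partner, UBE2V1 or UBE2V2. UBE2N read 293.3 and 404.4 (log2 ratio 0.46, row SD 0.42). Of the 1826 genes in its band, 16.7% had a ratio as high or higher. UBE2V1 read 4907 and 4111 (-0.26, row SD 0.20), and UBE2V2 read 248.4 and 270.8 (0.12, row SD 0.42). Enzyme and cofactor rows thus lay on opposite sides of 0 for UBE2N and UBE2V1, and UBE2V1 stood at -1.72 row SDs from the median of all genes. UBE2NL, a close copy of UBE2N on the X chromosome, read 1212 and 1463 (0.27). Probe sequences were not used here, so signal of UBE2N and UBE2NL cannot be assigned to one copy or the other. Of the ligases listed as partners, 4 of 7 were above the limit, with a median log2 ratio of 0.34, 0 past 2-fold, RNF13 (180.5 and 294, log2 ratio 0.70) and TRAF2 (1206 and 1765, 0.55) highest and BIRC2 (410.9 and 295.9, -0.47) below 0.

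Promoter sequences are shown for these 5 genes, the lowest 3 of all and the highest 2 above the brightness limit, so that the outermost members can be compared. Each window runs from 250 bases before to 50 bases after the gene start in RefSeq on GRCh38.p14 and is written 5′ to 3′ on the gene's strand. Capitals mark matches on either strand to 6 motifs. These are the E-box, searched as CACGTG, the box named CCAAT after its letters, and the GC box, searched as GGGCGG. The others are the TATA box, searched as TATAAA, a half-site of the factor NRF1, searched as TGCGCA, and an ETS factor site, searched as CCGGAAG. Matches that touch share 1 run of capitals.
UBE2K, chr4:39697886-39698185, plus strand: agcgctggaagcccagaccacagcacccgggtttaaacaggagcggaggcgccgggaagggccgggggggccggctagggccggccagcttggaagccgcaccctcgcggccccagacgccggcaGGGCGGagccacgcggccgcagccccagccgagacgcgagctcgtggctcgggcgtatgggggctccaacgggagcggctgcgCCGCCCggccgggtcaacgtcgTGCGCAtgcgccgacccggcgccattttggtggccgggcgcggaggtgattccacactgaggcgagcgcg
UBE2E2, chr3:23202848-23203147, plus strand: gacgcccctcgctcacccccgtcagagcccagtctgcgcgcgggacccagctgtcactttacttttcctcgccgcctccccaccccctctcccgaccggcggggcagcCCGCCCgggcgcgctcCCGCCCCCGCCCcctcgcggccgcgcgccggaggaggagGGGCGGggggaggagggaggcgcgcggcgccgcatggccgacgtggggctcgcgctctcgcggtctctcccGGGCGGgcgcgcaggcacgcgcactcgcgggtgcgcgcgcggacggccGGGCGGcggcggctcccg
UBE2G2, chr21:44801771-44802070, minus strand: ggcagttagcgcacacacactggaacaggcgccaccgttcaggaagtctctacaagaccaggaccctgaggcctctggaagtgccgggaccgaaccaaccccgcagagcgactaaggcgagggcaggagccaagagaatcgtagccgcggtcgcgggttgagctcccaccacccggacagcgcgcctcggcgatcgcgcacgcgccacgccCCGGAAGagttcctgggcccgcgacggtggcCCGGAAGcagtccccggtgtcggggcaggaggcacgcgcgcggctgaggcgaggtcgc
UBE2R2, chr9:33816910-33817209, plus strand: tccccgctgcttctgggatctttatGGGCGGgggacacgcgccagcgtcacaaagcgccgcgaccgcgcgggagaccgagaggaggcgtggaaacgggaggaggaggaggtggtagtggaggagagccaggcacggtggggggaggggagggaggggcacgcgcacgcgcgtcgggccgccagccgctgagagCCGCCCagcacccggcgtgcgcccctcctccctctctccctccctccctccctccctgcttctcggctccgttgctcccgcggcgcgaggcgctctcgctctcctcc
UBE2N, chr12:93441898-93442197, minus strand: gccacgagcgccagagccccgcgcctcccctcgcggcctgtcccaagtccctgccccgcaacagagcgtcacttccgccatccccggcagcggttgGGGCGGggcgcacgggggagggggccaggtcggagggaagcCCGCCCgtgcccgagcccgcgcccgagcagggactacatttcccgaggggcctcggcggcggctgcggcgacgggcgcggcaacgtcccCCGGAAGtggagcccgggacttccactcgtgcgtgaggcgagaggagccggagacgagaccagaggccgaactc
The GC box was in both high genes and in 2 of the 3 low ones, so it did not separate them. UBE2K held 2 GC boxes and 1 NRF1 half-site, UBE2E2 held 6 GC boxes, and UBE2G2 held 2 ETS sites and 0 GC boxes. UBE2R2 held 2 GC boxes, and UBE2N held 2 GC boxes and 1 ETS site. Over the 21 E2 genes with a promoter entry, a GC box was present in 17 (81.0%, beside 44.6% of 27305 promoters), an ETS site in 5 (23.8%, beside 10.7%) and a CCAAT box in 6 (28.6%, beside 35.7%). An E-box was present in 0 of 21, beside 7.43% of all promoters, the NRF1 half-site in 3 (14.3%, beside 8.42%) and a TATA box in 1 (4.76%, beside 12.0%). The E2 windows were also richer in G and C, with a median of 69.7% beside 58.3% over all windows, which bears on motifs made of those letters. UBE2B, UBE2H, UBE2NL, UBE2Q1 and UBE2V2 are named only. A match is a run of letters and not a measured binding site.

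Of the E2 genes whose products handle histones, UBE2A was near the median of all genes, and UBE2B was too dim to place. UBE2A and UBE2B are the human forms of yeast RAD6, which marks histone H2B with RNF20 and RNF40 and the replication clamp with RAD18. UBE2A had 2 rows, at 510.4 and 562.8 in one and 1005.7 and 1039.3 in the other, with log2 ratios of 0.14 and 0.05. UBE2B was dim, at 35.0 and 54.6 (0.64, row SD 0.80). Of 7 RAD6 partner genes 5 were above the limit, with a median log2 ratio of 0.15, RNF20 at 0.15 and RNF40 at 0.26 on the log2 ratio scale. WAC, an adaptor of RNF20 and RNF40, was the one past 2-fold among them, at 364.0 and 163.0 (-1.16, row SD 0.60). RAD18 was under the limit on both arrays, at 87.6 and 30.6.

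The UBE2D group, which serves Polycomb and many other RING ligases, was represented among the members by UBE2D4 alone. It read 221.8 and 216.0 (log2 ratio -0.04). Accessions in the RefSeq gene table named 6 further rows of 6 E2 genes that the platform annotation leaves without a symbol, and these were described apart from the members. UBE2D3 read 2645 and 2862 (0.11), while UBE2D1 (20.1 and 16.9) and UBE2D2 (19.3 and 37.7) were far under the brightness limit. Of 6 RING ligases of Polycomb and histone H2A 2 were above the limit, RING1 and BRCA1 (log2 ratio -0.15), with 0 past 2-fold. RING1, the Polycomb ligase subunit, read 410.7 and 409.7 (-0.004), and RNF2 was under the limit on both arrays. The bright rows of UBE2D3, UBE2D4 and RING1 thus lay between -0.04 and 0.11 on the log2 ratio scale. BMI1 read lower, in a single dim row with a row SD of 0.80.

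The relatives of ubiquitin each have their own route. UBE2L6 carries ISG15, an interferon-induced modifier, and read 5414 on the empty vector array and 6697 on the shBMI-1 array (log2 ratio 0.31, row SD 0.20), 1.11 row SDs above the median of all genes. ISG15 itself read 266.9 and 349.7 (0.39, row SD 0.42), and USP18, which removes it, read 254.9 and 352.6 (0.47, row SD 0.42). TRIM25, a ligase of the pathway, had a ratio of 0.35. The E1 gene UBA7 (121.4 and 90.9) and the ligase gene HERC5 (69.8 and 65.1) were under the limit, and ARIH1 had a ratio of -0.43. The 4 of 6 partners above the limit had a median of 0.37, with 0 past 2-fold.

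UBE2F and UBE2M carry NEDD8, the modifier that switches on cullin-RING ligases. UBE2F, which acts with RNF7 on CUL5, read 411.2 and 448.0 (log2 ratio 0.12), and the row of UBE2M named through RefSeq read 4879 and 5302 (0.12). Of their E1 subunits, NAE1 read 832.9 and 1261 (0.60, row SD 0.25) and UBA3 read 218.6 and 257.8 (0.24, row SD 0.60). NEDD8 itself had a ratio of 0.02. Of 17 cullin and neddylation genes 13 were above the limit, 6 above 0 and 7 below, with a median of -0.01. RBX1 (711.8 and 1030, log2 ratio 0.53) and DDB1 (0.51) were at the upper end. DCUN1D3, a neddylation cofactor, was past 2-fold lower at 171.3 and 50.4 (-1.76, row SD 0.76), with its shBMI-1 value under the limit. The E1 genes for SUMO, SAE1 and UBA2, had log2 ratios of 0.25 and 0.36. Of the 12 listed SUMO ligases and proteases with a row 10 were above the limit, with a median of 0.24 and 0 past 2-fold. PIAS2 (0.59), RANBP2 (-0.52) and PIAS4 (0.46) had the ratios farthest from 0.

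Among E2 enzymes of the cell cycle and of DNA repair, UBE2S and UBE2T had ratios above 0 and within 2 row SDs of the median of all genes. UBE2S, which extends chains on substrates of the anaphase-promoting complex, read 7362 and 9166 (log2 ratio 0.32, row SD 0.20). It lay 1.15 row SDs above the median of all genes. Of 15 genes listed for that complex 12 were above the limit, with a median of 0.29 beside 0.09 over all genes. Above 0 were 10 of these 12 (83.3%, beside 60.0% of all genes above the limit). Both counts include FZR1 (0.27), an activator of the complex rather than a core subunit. ANAPC5, a scaffold subunit, was past 2-fold higher at 2111 and 4309 (1.03, row SD 0.23). Of the 852 genes above the limit in its band, 0.47% were past 2-fold higher. ANAPC2, the cullin subunit that with ANAPC11 receives the E2, read 934.3 and 634.7 (-0.56, row SD 0.30), and ANAPC11 had a mean ratio of 0.33 over 5 rows. ANAPC1 (0.69) and ANAPC13 (-0.59) were also among the 3 farthest from 0. ANAPC1 read 94.6 and 152.6 (row SD 0.76), above the limit on the shBMI-1 array alone. UBE2T, the E2 of the Fanconi anaemia pathway for crosslink repair, read 1874 and 2202 (0.23, row SD 0.25). It lay 0.59 row SDs above the median of all genes, and 29.9% of the 1203 genes in its band had a ratio as high or higher. Its ligase FANCL read 132.8 and 71.1 (-0.90, row SD 0.76), passing the limit on the empty vector array alone. Of 10 genes of that pathway 7 were above the limit, with a median of -0.04 and FANCM at 0.89, FANCL and FANCC (-0.39) farthest from 0. FANCM read 99.5 and 184.9 (row SD 0.60), above the limit on the shBMI-1 array alone.

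Over all 13 lists, 97 different partner genes were above the limit, of which 2 were past 2-fold higher and 4 past 2-fold lower, 6.19% together beside 6.78% of all genes. Under this limit the partners as a whole were thus near the share of all genes. Both shares include genes that passed the limit on 1 array alone. Of the partners past 2-fold, UFM1 and DCUN1D3 did so, while MOCS3, WAC, RNF185 and ANAPC5 passed it on both arrays. In row SDs from the median of all genes, MOCS3 stood at -4.48, ANAPC5 at 4.09 and RNF185 at -2.89. DCUN1D3 stood at -2.45, WAC at -2.08 and UFM1 at 1.63. With the limit on both arrays, 2.24% of all genes were past 2-fold. The share of partners was not counted there, so nearness to all genes is not shown at that limit.

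**Figure D3:**
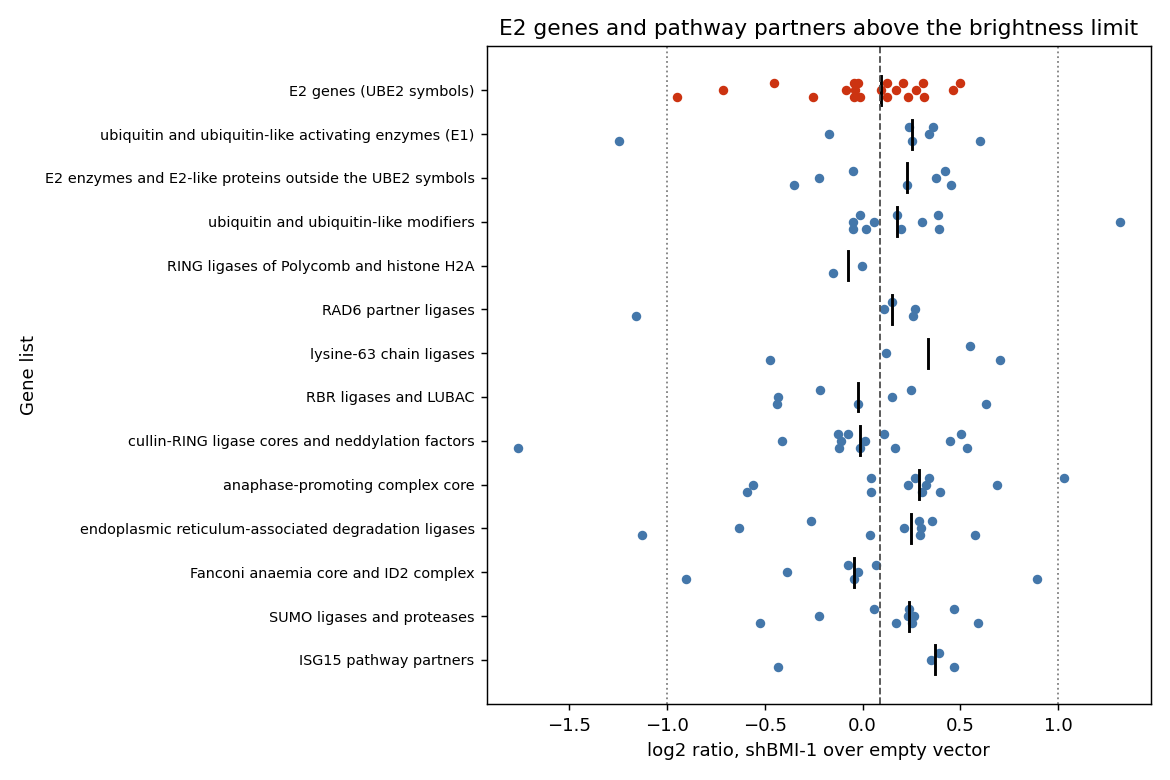
Log2 ratio of shBMI-1 over empty vector for the 21 E2 genes (red) and for genes of 13 partner lists (blue), 1 point per gene above the brightness limit, with the median of each list as a black bar. The dashed line is the median of all genes, 0.09, and the dotted lines mark 2-fold; 6 partner genes and 0 E2 genes lie past 2-fold.

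For the degradation route of the endoplasmic reticulum, where UBE2G2 was lower, 10 of the 11 listed genes with a row were above the limit. Their median log2 ratio was 0.25, with 7 above 0 and 3 below. AUP1, which recruits UBE2G2 to the membrane, read 17456 and 14566 (log2 ratio -0.26, row SD 0.20). RNF185 was past 2-fold lower at 447.2 and 204.6 (-1.13, row SD 0.42), and DERL3 read 796.5 and 513.4 (-0.63, row SD 0.30). DERL2 was higher at 544.0 and 809.7 (0.57, row SD 0.30). AUP1 was thus lower by less than UBE2G2, and the share of listed genes above 0 (70.0%) is read beside the 60.0% of all genes above the limit.

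The other E2 genes above the limit were close to 0 or below it. UBE2O, a large enzyme that acts as E2 and ligase at once, read 900.9 and 893.8 (log2 ratio -0.01), and centring each array on its median turned this to 0.004. UBE2Z, which is charged by the alternative E1 UBA6, read 4072 and 4003 (-0.02). UBE2Q1 read 209.2 and 197.1 (-0.09), and its paralog UBE2Q2 read 154.1 and 112.8 (-0.45, row SD 0.60), above the limit on the empty vector array alone. UBE2U was dim, at 23.0 and 23.1. UBE2L3, the E2 of RBR ligases, read 1444 and 1387 (-0.06) in the row named through RefSeq, and UBE2W read 12.2 and 17.2. Of 12 RBR ligase and LUBAC genes with a row 7 were above the limit, with a median of -0.02 and 0 past 2-fold. ARIH2 (0.63), CUL9 (-0.44) and ARIH1 were farthest from 0.

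Upstream of the family, the E1 genes and the modifiers were mostly within 2-fold. Of 10 E1 genes 7 were above the limit, 5 above 0 and 2 below, with a median log2 ratio of 0.25. UBA1, the main ubiquitin E1, had a mean of 10185 and 9027 over 2 rows (-0.17, row SD 0.20). MOCS3, the E1 of the sulfur-carrying modifier URM1, was past 2-fold lower at 1178 and 497.1 (-1.24, row SD 0.30). Of the 1552 genes above the limit in its band, 1.03% were past 2-fold lower. Of 12 modifier genes 11 were above the limit, with a median of 0.18. UBB, a polyubiquitin gene, read 15335 and 18946 (0.31, row SD 0.20). UFM1, whose value passed the limit with shBMI-1 alone, was past 2-fold higher at 62.8 and 156.4 (1.32, row SD 0.76). Of the E2-like genes with other symbols, 7 of 8 were above the limit with a median of 0.23, among them TSG101 (0.42) and AKTIP (-0.35), and 0 were past 2-fold.

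**Figure D4:**
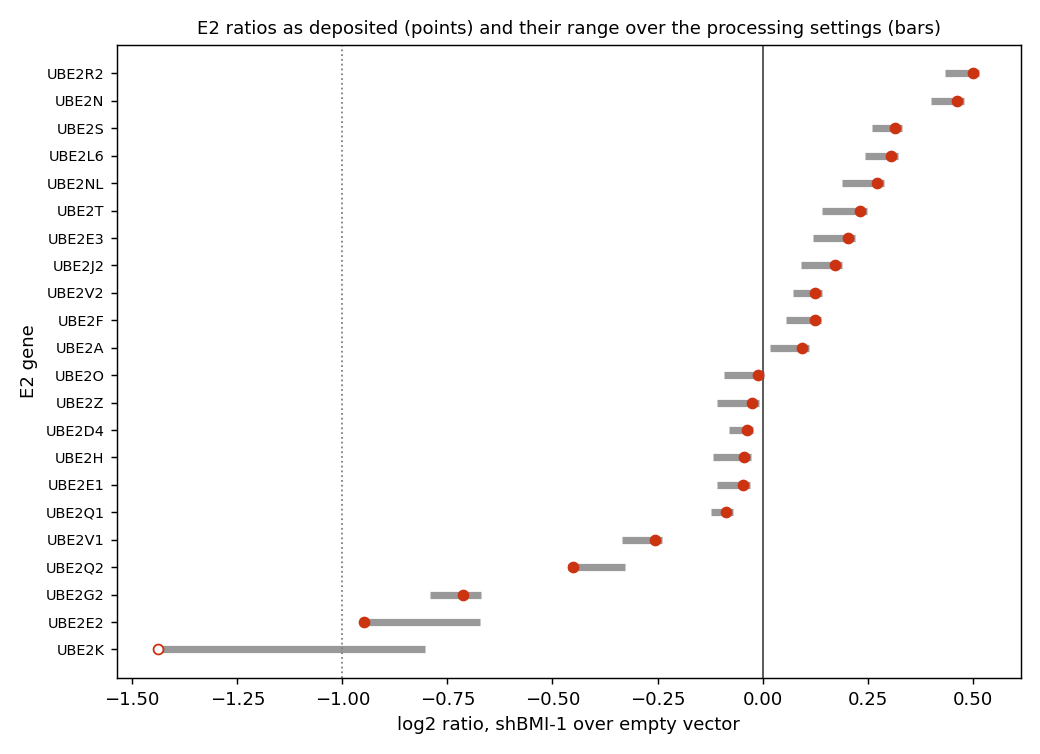
Log2 ratio of shBMI-1 over empty vector for the 21 E2 genes above the brightness limit (filled points) and UBE2K (open point), with bars spanning the lowest and highest value under the 10 alternative settings and the deposited scale. Settings that change only the limit or the set of genes cannot move a gene's own ratio. The bars thus reflect the normalizations, the pseudocount and, for UBE2A and UBE2E3, the brightest row. UBE2O is the only gene whose bar crosses 0, and the bar of UBE2K crosses the dotted 2-fold line at -1.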

How the data were processed

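RNA of 2 A375 cultures was measured on 2 single-colour arrays, 1 per group. Per the labels' protocols, the authors made cDNA from 5 μg of total RNA with an oligo-dT primer and labelled it with Cy3. In the deposited table each row has a linear intensity on either array. How the authors scanned, summarised probes and normalized: not given in the sources used here.

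Symbols came from the platform annotation (18188 rows with 1 symbol, 26845 unnamed), and 678 unnamed rows matched a RefSeq accession (GRCh38.p14 table), used for 6 further E2 genes and for list genes. Values were taken to log2 as deposited, with no pseudocount, and rows of one gene were averaged. The brightness limit, row SD and 2-fold rule are given in the report. Some genes of the family and of the lists are not reported here. Members and lists were chosen with earlier results of these data known. All 26 member genes are named, and of each partner list those past 2-fold, up to 3 farthest from 0, and known partners of an E2, whose values had been seen.

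Alternatives were median centring, quantile and loess (span 0.3, 3 iterations) normalization, a pseudocount of 50, the brightest row, other limits (none, 75th percentile, both arrays) and 1.5-fold and 3-fold. Adding the RefSeq-named genes and leaving out UBE2NL were chosen after seeing the data. The procedure was run on simulated data with large changes planted in genes above the limit and the other ratios shuffled and made smaller. That run checks the code and does not measure error at the spread of the real data. Python 3.11.15, numpy 2.4.6, pandas 2.3.3, statsmodels 0.14.6 and matplotlib 3.10.9 were used.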

Additional observations from a re-analysis of the deposited data

How the results depend on the processing

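The count of E2 genes past 2-fold was 0 under the 3 normalizations, the pseudocount of 50, the brightest row, the limit at the 75th percentile, the limit on both arrays, the 3-fold threshold and both added alternatives. It was 1 of 26 (UBE2K) with no brightness limit and 2 of 21 (UBE2E2 and UBE2G2) at 1.5-fold. The count of genes above 0 was 7 of 12 with the limit at the 75th percentile, where fewer genes remain, and 10 to 15 under the other settings. The median log2 ratio ran from 0.02 after loess normalization to 0.13 with the limit at the 75th percentile; its difference from the median of all genes ran from -0.05 without UBE2NL to 0.05 with no limit, so its side of that median was not settled. UBE2O alone of 22 genes changed sign. Only the 3 normalizations, the pseudocount and, for UBE2A and UBE2E3, the brightest row could move a gene's own ratio. No paired analysis was possible because each group had 1 array. Detection calls were not used here, so whether dim values lay above background is unknown.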
